A study of Mus musculus with 33 samples.

Results

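The cells described here were GFP- Thy1- SSEA1+ intermediates of reprogramming, sorted from mouse embryonic fibroblasts (MEFs) on days 8, 11 and 14 of doxycycline. They were chosen by the sort gate and the day named in the sample titles, which gave 6 of the 33 samples of the series: 1 library for each of the 3 days in each of 2 arms. Primary MEFs came from embryos of 14 to 15 days post coitum from a cross of 3 lines. The reporter line was B6;129S4-Pou5f1tm2Jae/J, and the lines of rtTA and of the factors had the backgrounds B6.Cg and B6;129S4. Their genotype was Col1a1-OSKM+/- with Rosa26-rtTA+/- and Oct4-GFP+/- in every library. With doxycycline, here at 1 µg/ml, rtTA switches on the tetO cassette of Pou5f1 (Oct4), Klf4, Sox2 and Myc, and the GFP reporter marks cells in which the Pou5f1 locus is active. The arms were lentiviral overexpression of a control or of Dppa2 and Dppa4, so that both carried the 4 factors and were kept in medium with serum and leukaemia inhibitory factor. Polyadenylated RNA was sequenced and reported as FPKM (fragments scaled by transcript length and library size). No animal, litter or culture is named for a library, and each combination of arm and day was measured once. The p-values of the test in these 6 libraries therefore measure how alike and how linear the arms moved.

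During reprogramming, fibroblasts that respond to the factors lose the surface glycoprotein Thy1, then gain the carbohydrate antigen SSEA1, and a minority of the SSEA1+ cells goes on to switch on the Pou5f1 reporter and the rest of the pluripotency network. SSEA1 is a sugar epitope that fucosyltransferases such as Fut9 make, so it has no transcript of its own. The early fibroblast programme, made of collagens and other matrix genes, falls while epithelial junction genes such as Cdh1 and Epcam are induced.

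The transcripts were read against the gate. Thy1 stood at 6.27, 12.3 and 67.2 FPKM on days 8, 11 and 14 in the control and at 10.3, 26.5 and 11.9 FPKM with Dppa2/4, against 244 to 749 FPKM in the Thy1+SSEA1- cells of days 8 and 14. In Thy1-SSEA1- cells it stood at 39.5 to 58.8 FPKM. The control SSEA1+ library of day 14 thus lay above every Thy1-SSEA1- library of these days, and the other SSEA1+ libraries lay below them. Fut9 stood between 5.26 and 15.3 FPKM, against 0.204 to 1.13 FPKM in Thy1+SSEA1- cells. Between the fractions lay Nanog, a transcription factor of the pluripotency core, at 74.1 to 232 FPKM, above the 2.75 to 4.69 FPKM of Thy1+SSEA1- cells and below the 259.9 to 360.4 FPKM of GFP+ cells. Dppa2 stood at 14.1, 6.4 and 11.4 FPKM in the control and at 123, 43.2 and 114 FPKM with Dppa2/4. Dppa4 stood at 8.1, 7.23 and 28.6 FPKM in the control and 156, 47.8 and 125 FPKM with Dppa2/4, so both were higher in the overexpressing arm on every day. The depth implied by the lowest FPKM values was 31100000, 42500000 and 34700000 fragments in the control on days 8, 11 and 14 and 32000000, 43100000 and 32400000 with Dppa2/4, so that libraries of a day resembled each other in depth, and anything the libraries of a day share cannot be told apart from the day. The number of genes at 1 FPKM or more was 12371, 12956 and 14047 in the control and 13278, 13979 and 14046 with Dppa2/4. Libraries correlated at 0.845 to 0.95 over the genes tested.

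The change with day was tested in 14567 genes as a slope of log2(FPKM + 1) with the arm as a term (limma, two-sided, Benjamini-Hochberg adjustment over all genes tested, threshold 0.05), and it is given below as the change over the 6 days from day 8 to day 14, with its standard error (SE). No gene passed: 0% were called in either direction, the smallest adjusted p was 0.0739, and at an unadjusted p under 0.05 2606 genes (17.9%) were higher with day and 952 (6.54%) lower. An adjusted p under 0.1 was reached by 981 genes higher and 269 lower. The order of the levels was the same in both arms at every step in 2204 genes that were higher on each later day (15.1%) and in 965 that were lower (6.62%). With protein-coding genes alone the same test called 846 higher and 183 lower. The gene values below are therefore given as measured, and "called" refers to a second fit that shares its estimate of the spread over the 20 libraries of days 8 to 14 in the 4 sorted fractions (Thy1+SSEA1-, Thy1-SSEA1-, Thy1-SSEA1+ and GFP+), with a level for each fraction and arm and a slope for each fraction. The use of this fit for calls was added after the values were seen. Its p-values also rest on the spread in the other fractions. It takes fractions of the same arm and day as independent, which was not tested. In that fit the slope of the SSEA1+ cells was called higher in 1495 of 16471 genes (9.08%) and lower in 424 (2.57%), and among the 14567 genes tested in both fits in 1446 (9.93%) and 423 (2.9%). All 1495 and all 424 had the same sign in both arms, and 1167 and 360 of them moved that way at every step in both arms. The calls were made from these same values, so this agreement was largely set by the choice and is no support for them.

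These calls depend on single libraries. Without the control library of day 14 the fit over all fractions called 29 genes higher and 3 lower, without the Dppa2/4 library of day 8 it called 176 and 20, and without the control library of day 8 618 and 159. Without the Dppa2/4 library of day 14 it called 1096 and 238, and without a library of day 11 1291 and 315 (control) or 1351 and 373 (Dppa2/4). It called 17 genes higher and 2 lower in the full fit and in each of the 6 fits that left out an SSEA1+ library. Over the genes tested, the median change over 6 days was 0.18 on the log2 scale, and quantile normalization, which makes the distributions of the libraries equal, moved it to -0.05. The same normalization gave 704 genes higher and 652 lower. Equal distributions remove a broad rise of any origin, so whether the excess of higher calls came from the scaling or from the cells was not tested. The direction of each list described with a median beyond 0.5 below was the same with and without this normalization.

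**Figure D1:**
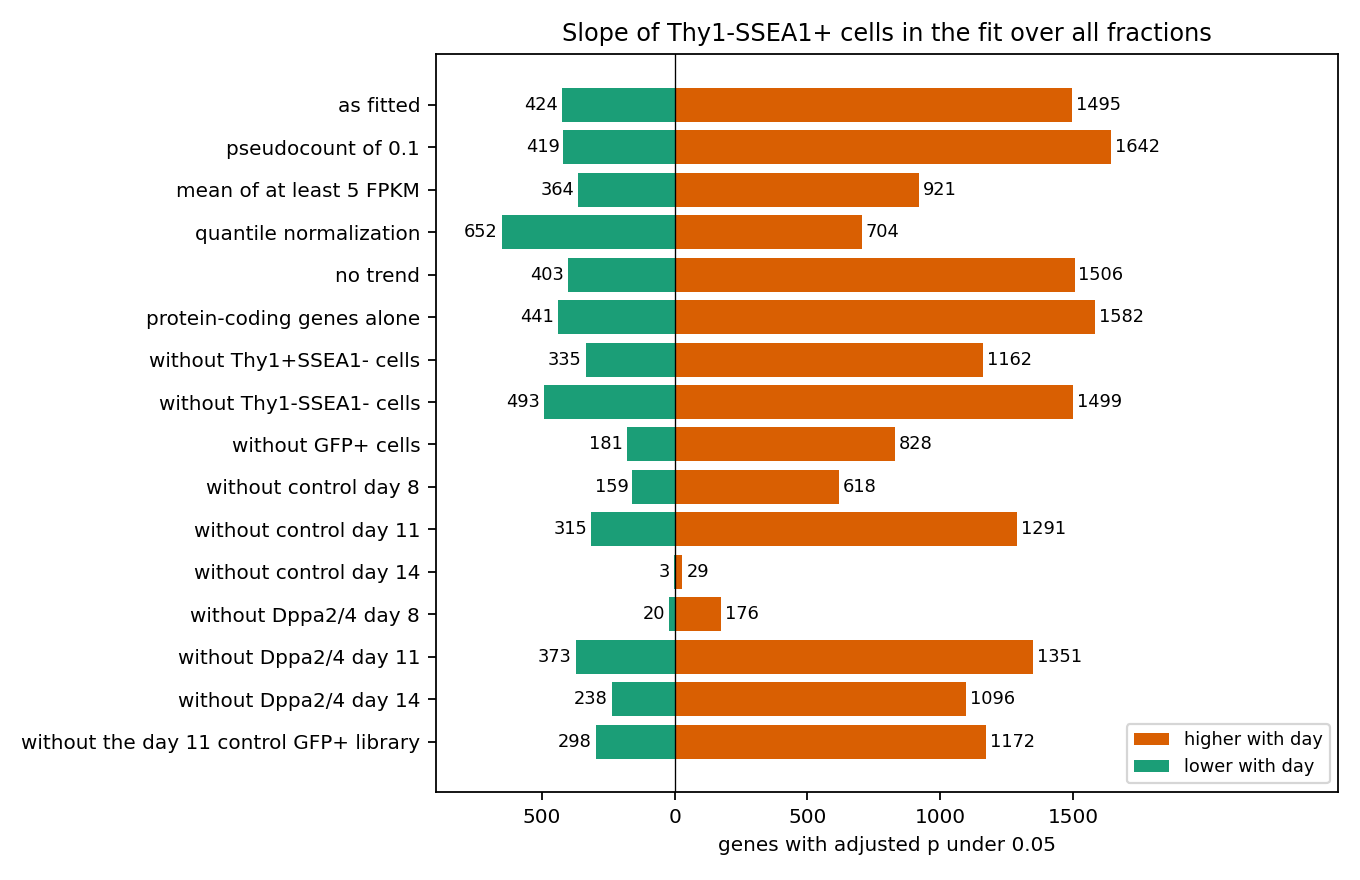
Number of genes whose change with day passed an adjusted p of 0.05 in Thy1-SSEA1+ cells in the fit over all fractions (x axis, bars to the right for higher with day and to the left for lower), for each setting (y axis). The bars were 1495 and 424 genes as fitted and 29 and 3 without the control library of day 14.

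Many genes of glycolysis and of the response to low oxygen were higher on each later day in both arms. Of the 29 genes of this list that were tested, 18 were higher at every step in both arms and none was lower at every step, against 15.1% and 6.62% of all genes. The fit over all fractions called 13 of the 29 higher and none lower, against 9.93% and 2.9% of all genes, and the count was 0 without the control library of day 14, 2 without the Dppa2/4 library of day 8 and 7 to 11 without each of the other 4. The median change over 6 days was 1.29, against 0.18 over all genes. Bnip3, a mitochondrial protein that mediates mitophagy, stood at 37.9, 54.6 and 291 FPKM on days 8, 11 and 14 in the control and at 64.3, 285 and 568 FPKM with Dppa2/4. Adm, which encodes the vasodilator peptide adrenomedullin, stood at 1.36, 2.92 and 34.3 FPKM in the control and at 5.14, 48.5 and 85.8 FPKM with Dppa2/4. For Ndrg1, a gene induced by hypoxia and differentiation, the levels were 10.8, 10.9 and 109.8 FPKM in the control and 11.7, 41.5 and 126 FPKM with Dppa2/4. In each of these genes the larger ratio between neighbouring days lay between days 11 and 14 in the control and between days 8 and 11 with Dppa2/4. Bnip3 differed by 3.02 (SE 0.41) over 6 days, with an adjusted p of 0.0739 in the 6 libraries and 0.00578 in the fit over all fractions.

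The other members showed how far this reached along the pathway. Vegfa, the growth factor of blood vessels, stood at 5.34, 10.1 and 40.5 FPKM in the control and 9.47, 39.7 and 79.7 FPKM with Dppa2/4, and its adjusted p in the fit over all fractions was 0.0122. Egln3, an oxygen-sensing prolyl hydroxylase, stood at 16.7, 21.1 and 107 FPKM in the control and 55.5, 159.8 and 289 FPKM with Dppa2/4. P4ha1, a subunit of collagen prolyl hydroxylase, stood at 16.6, 19.3 and 97.2 FPKM in the control and 31.7, 127 and 249 FPKM with Dppa2/4. Among the glycolytic enzymes, Pgk1 (phosphoglycerate kinase) stood at 473, 570.2 and 1215 FPKM in the control and 385, 877 and 1326 FPKM with Dppa2/4, and was called (adjusted p 0.00719). Aldoc, Gpi1, Pfkp, Eno2, Hk1 and Ldhb were the other enzymes called higher. Members that were not called included Hk2, at 103, 72.7 and 93.8 FPKM in the control and 68.4, 67.1 and 114 FPKM with Dppa2/4. Hif1a, which encodes the oxygen-regulated transcription factor subunit, stood at 47, 43.9 and 32.5 FPKM in the control and 32.1, 66.1 and 71.1 FPKM with Dppa2/4. Eno1 (enolase), at 1960.2, 2248 and 3157 FPKM in the control and 1809, 1363 and 1642 FPKM with Dppa2/4, was higher on day 14 than on day 8 in the control alone. The lactate transporter Slc16a3 was another that was not called, at 18.2, 21.7 and 69.3 FPKM in the control and 36.3, 26.6 and 34.7 FPKM with Dppa2/4.

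The promoters of all tested glycolysis and hypoxia genes, whether called or not, were read for the core letters of the hypoxia response element, ACGTG on either strand. The window was the 250 bases before the gene start (RefSeq, GRCm38.p6, the first start listed for a gene). Of the tested genes of the list, 27 matched a promoter of the table and 12 of them held the letters (44.444%), against 2043 of 9260 promoters of tested genes (22.063%). The list was written to hold genes of the response to low oxygen, so this share describes the list and not the change with day. Of the 27 ribosome biogenesis genes with a promoter, 4 held them (14.815%). The palindrome CACGTG, which contains ACGTG on both strands, was in 4 of the 27 (14.815%) and in 803 of the 9260 (8.672%). Shown 5′ to 3′ are the 3 called members with a match and the largest difference between days 14 and 8, a choice made after the values were seen. Capitals mark ACGTG, or CACGT where it lies on the other strand. A match describes the letters alone.
Bnip3 (chr7:138909507-138909756, - strand): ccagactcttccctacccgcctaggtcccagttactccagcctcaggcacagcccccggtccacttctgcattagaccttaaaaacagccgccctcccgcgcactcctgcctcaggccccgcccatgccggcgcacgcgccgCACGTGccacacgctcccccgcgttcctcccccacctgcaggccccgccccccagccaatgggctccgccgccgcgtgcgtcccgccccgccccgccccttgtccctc
P4ha1 (chr10:59323046-59323295, + strand): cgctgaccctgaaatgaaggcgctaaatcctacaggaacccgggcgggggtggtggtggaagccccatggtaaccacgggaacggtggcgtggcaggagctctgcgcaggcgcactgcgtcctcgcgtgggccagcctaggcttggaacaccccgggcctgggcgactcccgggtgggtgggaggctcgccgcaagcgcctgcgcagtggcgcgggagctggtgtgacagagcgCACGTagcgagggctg
Egln3 (chr12:54203875-54204124, - strand): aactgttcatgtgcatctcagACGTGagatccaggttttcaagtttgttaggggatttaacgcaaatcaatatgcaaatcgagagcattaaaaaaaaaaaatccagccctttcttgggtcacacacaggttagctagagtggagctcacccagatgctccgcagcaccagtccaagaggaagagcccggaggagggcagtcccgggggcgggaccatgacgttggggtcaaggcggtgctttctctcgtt
The Bnip3 promoter holds the palindrome, whose matches on the 2 strands end 103 and 102 bases before the start, while P4ha1 holds 1 match on the other strand 11 bases before it and Egln3 holds 1 match 224 bases before it. Adm, with a larger difference than any of the 3, had no match in this window.

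Among immediate early and stress genes, more were higher on each later day than lower. Of 22 tested, 12 were higher at every step in both arms and 1 was lower at every step, against 15.1% and 6.62% of all genes. The fit over all fractions called 11 higher and 1 lower, against 9.93% and 2.9% of all genes, and the median change over 6 days was 1.38. The count of higher calls was 0 without the control library of day 14, 2 without the Dppa2/4 library of day 8 and 6 to 11 without each of the others. Fos, a subunit of the AP-1 transcription factor, stood at 8.95, 13.1 and 99.4 FPKM in the control and at 14.2, 47.8 and 177 FPKM with Dppa2/4. Egr1, a growth factor-induced zinc finger factor, stood at 22.7, 30.4 and 132 FPKM and 18.6, 73.3 and 205 FPKM. Dusp1, a phosphatase of MAP kinases, stood at 5.15, 9.25 and 65.4 FPKM in the control and 9.06, 34.1 and 88.8 FPKM with Dppa2/4. All 3 were lowest on day 8 and highest on day 14 in both arms, with changes over 6 days of 3.44, 2.94 and 3.30 (SE 0.43, 0.39 and 0.39). Egr2, Fosb, Jun, Atf3, Ier3, Gadd45b, Ddit3 and Hspa1b were the other members called higher. Zfp36, which encodes an mRNA decay factor of the same response and is no member of the list, stood at 7.26, 16.6 and 60.0 FPKM in the control and 8.05, 30.9 and 64.4 FPKM with Dppa2/4. The member called lower was Hsph1, a heat shock chaperone, at 88, 47.8 and 20.0 FPKM in the control and 64, 37.2 and 26.1 FPKM with Dppa2/4 (adjusted p 0.00578 in the fit over all fractions).

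The reprogramming factors and the pluripotency network did not move as 1 group. Pou5f1 stood at 789, 911 and 881 FPKM in the control and at 491, 312 and 315 FPKM with Dppa2/4. Sox2 stood at 69.2, 74.7 and 61.1 FPKM in the control and 10.9, 28.4 and 32.3 FPKM with Dppa2/4. Klf4 stood at 50.4, 61.8 and 30.8 FPKM in the control and 29.5, 21.3 and 10.6 FPKM with Dppa2/4, and none of these 3 was called. Myc stood at 116, 128 and 57.5 FPKM in the control and 110.0, 52.6 and 13.9 FPKM with Dppa2/4. Its change was -1.95 (SE 0.49, adjusted p 0.0904) in the 6 libraries, and it was called (adjusted p 0.0151) in the fit over all fractions. The cassette carries these 4 genes, and the table does not separate its transcripts from those of the endogenous genes. Nanog, which the cassette does not carry, was lower on each later day in both arms. It stood at 232, 209 and 161 FPKM in the control and 123, 104 and 74.1 FPKM with Dppa2/4. Its change was -0.62 (SE 0.21, adjusted p 0.142) in the 6 libraries, and it was called (adjusted p 0.0278) in the fit over all fractions. Zscan10, a zinc finger factor of embryonic stem cells, was lower in the same way, at 44.4, 37.3 and 25.7 FPKM in the control and 12.8, 9.89 and 6.71 FPKM with Dppa2/4 (adjusted p 0.0288). Zfp42 (Rex1), a marker of naive pluripotency, was higher, at 14.9, 15.3 and 31 FPKM in the control and 1.17, 9.8 and 17.7 FPKM with Dppa2/4 (adjusted p 0.0301). Klf2 and Tcea3 were also called higher. Of 22 transcription factors of the network that were tested 3 were called higher and 2 lower, with a median change of 0.13, against 9.93% and 2.9% of all genes, so the counts are near the background. Without the control library of day 14, or without the Dppa2/4 library of day 8, none of the 5 was called. The lower calls of Nanog and Zscan10 were also lost without the control library of day 8 and without the Dppa2/4 library of day 14.

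Several factors of the network were higher in the control than with Dppa2/4 on every day. Esrrb, an orphan nuclear receptor, stood at 62.6, 81.9 and 77.8 FPKM in the control and 12.1, 22.9 and 21.4 FPKM with Dppa2/4. Tfcp2l1 stood at 44.5, 50.4 and 31.1 FPKM in the control and 4.4, 19 and 27.5 FPKM with Dppa2/4. Neither change with day was called. Dppa3, a maternal factor of early embryos, stood at 45.4, 45 and 53 FPKM in the control and 1.81, 15 and 19.9 FPKM with Dppa2/4, where only the Dppa2/4 libraries show a large step between days 8 and 11. Prdm14 stood at 12.9, 11.7 and 14.5 FPKM in the control and 1.12, 1.85 and 3.94 FPKM with Dppa2/4. Nr5a2 stood at 23.9, 16.1 and 5.1 FPKM in the control and 0.378, 1.27 and 1.72 FPKM with Dppa2/4, with day 14 below day 8 in the control and above it with Dppa2/4.

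Among 28 other genes of pluripotent cells, 5 were called higher and 1 lower, against 9.93% and 2.9% of all genes, with a median change of 0.44. Dppa5a, an RNA-binding protein of stem cells, showed the largest difference of the list, at 115, 216 and 1140 FPKM in the control and 12.6, 168 and 497 FPKM with Dppa2/4. Its change over 6 days was 4.25 (SE 0.59), with an adjusted p of 0.0739 in the 6 libraries and 0.00423 in the fit over all fractions. Spp1 (osteopontin) stood at 102, 481 and 1670.4 FPKM in the control and 167, 1972 and 1217 FPKM with Dppa2/4, with the Dppa2/4 library of day 11 above that of day 14. Fgf4, a growth factor of the inner cell mass, Trap1a and Gjb5 were also called higher. L1td1, an RNA-binding protein derived from a transposon, was lower at every step, at 277, 185 and 60.5 FPKM in the control and 161, 121 and 59.2 FPKM with Dppa2/4 (adjusted p 0.0168). Tdgf1 (Cripto), a Nodal co-receptor that stood high from day 8 on, was not called, at 293, 252 and 334 FPKM in the control and 81.2, 134 and 248 FPKM with Dppa2/4.

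**Figure D2:**
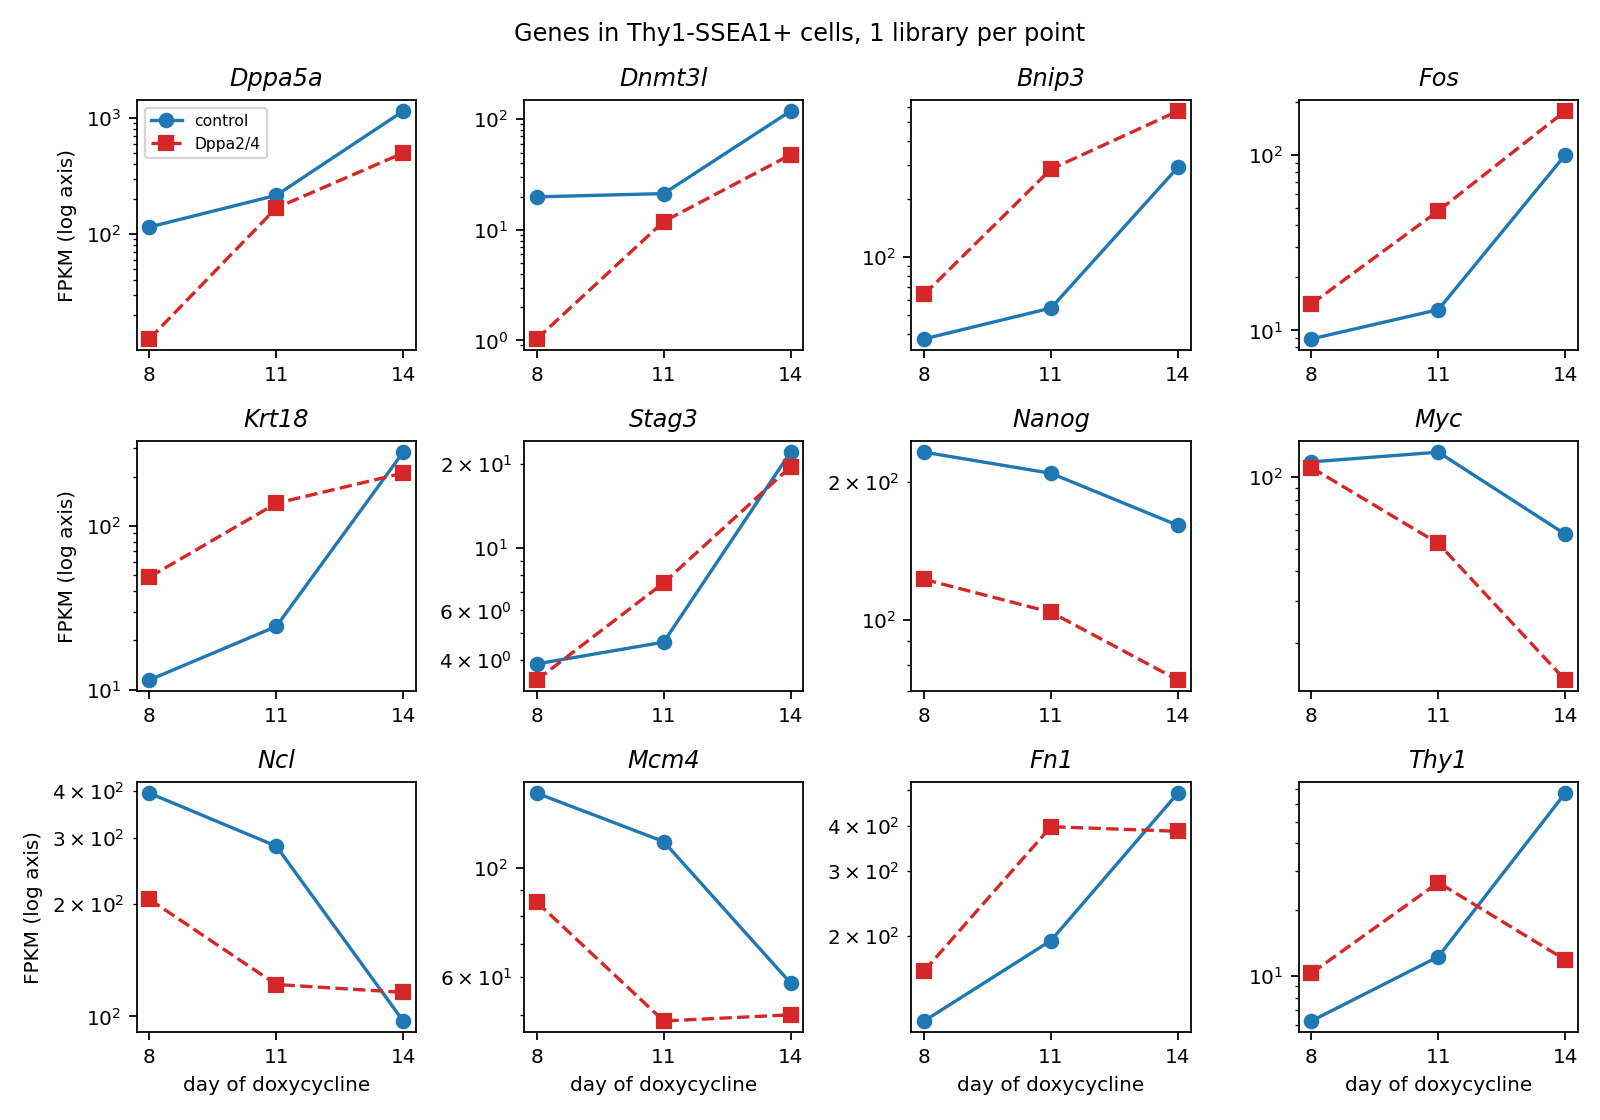
FPKM on a log axis (y) against the day of doxycycline (x) for 12 genes in Thy1-SSEA1+ cells, 1 library per point, with the control as circles and Dppa2/4 as squares. Dppa5a, Dnmt3l, Bnip3, Fos, Krt18 and Stag3 were lowest on day 8 and highest on day 14 in both arms, while Nanog was lower on each later day and Thy1 with Dppa2/4 was highest on day 11.

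Germline genes, many of which are silenced by DNA methylation in somatic cells, had a median change over 6 days of 1.00 among those tested. Of 32 members 21 passed the filter on low values, and several passed it only through the days on which they were high, so their counts are given as a description. Of the 21, 10 were higher at every step in both arms and none lower, and 11 were called higher in the fit over all fractions and none lower (15.1% and 6.62% of all genes at every step, 9.93% and 2.9% called). The count of calls was 1 without the control library of day 14 and 5 without the Dppa2/4 library of day 8. Stag3, a cohesin subunit of meiosis, stood at 3.87, 4.63 and 22 FPKM in the control and 3.4, 7.52 and 19.5 FPKM with Dppa2/4. Sycp3, of the synaptonemal complex, stood at 1.11, 1.82 and 6.2 FPKM in the control and 4.02, 14 and 24.2 FPKM with Dppa2/4. Mael, of the piRNA pathway, stood at 0.0665, 0.212 and 4.76 FPKM in the control and 1.68, 2.01 and 6.95 FPKM with Dppa2/4. In these 3 genes day 14 was the highest of its arm. Rec8, a meiotic cohesin, stood at 5.8, 17 and 32.6 FPKM in the control and 38.9, 50.9 and 79.1 FPKM with Dppa2/4. Dazl, an RNA-binding protein of germ cells, stood at 0.0455, 0.0417 and 1.14 FPKM in the control and 0.209, 0.498 and 4.5 FPKM with Dppa2/4. Ddx4, the germ cell helicase, was not called and stood at 0.278, 0.4 and 1.35 FPKM in the control and 15.7, 12.2 and 22.2 FPKM with Dppa2/4.

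Of 18 genes of DNA methylation 1 was called higher and none lower, beside 9.93% and 2.9% of all genes. Without the control library of day 14 none was called. The gene called was Dnmt3l, the catalytically inactive partner of the de novo DNA methyltransferases. It stood at 19.9, 21.3 and 118 FPKM in the control and at 1.03, 11.9 and 47.7 FPKM with Dppa2/4. Its change in the 6 libraries was 3.55 (SE 0.60), and its adjusted p in the fit over all fractions was 0.00654. The maintenance enzyme Dnmt1 stood at 58.8, 56.2 and 36.5 FPKM in the control and 62.8, 27.3 and 28.3 FPKM with Dppa2/4. Its partner Uhrf1 stood at 164, 125 and 93.2 FPKM in the control and 145, 40.6 and 49.3 FPKM with Dppa2/4. The de novo enzyme Dnmt3b stood at 66.8, 47.5 and 19 FPKM in the control and 10.0, 10.6 and 6.49 FPKM with Dppa2/4. Day 14 was below day 8 for these 3 genes in both arms, and none was called. The dioxygenase Tet1 stood at 27.8, 22.5 and 15.8 FPKM in the control and 7.08, 7.56 and 12.5 FPKM with Dppa2/4. Tet2, of the same family, stood at 11.9, 12.2 and 8.18 FPKM in the control and 4.72, 7.23 and 12.6 FPKM with Dppa2/4, and for both genes day 14 was below day 8 in the control and above it with Dppa2/4.

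Many epithelial genes were higher on each later day. All 32 members were tested, of which 15 were higher at every step in both arms and none lower, against 15.1% and 6.62% of all genes. The fit over all fractions called 12 higher and none lower, against 9.93% and 2.9% of all genes, with a median change of 0.95. No member was called without any 1 of the control libraries of days 8 and 14 and the Dppa2/4 library of day 8, and 6 to 11 were called without each of the other 3. Epcam, an epithelial adhesion molecule, stood at 88.6, 143 and 146 FPKM in the control and 113, 149.6 and 175 FPKM with Dppa2/4 (adjusted p 0.0304). Krt18, a keratin of simple epithelia, stood at 11.5, 24.3 and 282 FPKM in the control and 48.7, 137 and 210.4 FPKM with Dppa2/4. Krt19 stood at 23.4, 38.2 and 183 FPKM in the control and 41.6, 86.2 and 141 FPKM with Dppa2/4. The genes of tight junctions and polarity Cldn4, Cldn6, Cldn7, Marveld2, Marveld3, Cgn and Crb3 were called as well, and Cldn6 stood at 29.8, 54.1 and 82.1 FPKM in the control and 43.5, 75.5 and 89.9 FPKM with Dppa2/4. Cdh1, which encodes E-cadherin, was not called and stood at 124, 148 and 122 FPKM in the control and 76.1, 109 and 125 FPKM with Dppa2/4. Of 16 keratinocyte genes tested 3 were called higher and none lower, beside 9.93% and 2.9% of all genes. The defining markers of keratinocytes did not share a level. Krt5 stood at 0.15 to 0.537 FPKM, Trp63 at 0.108 to 0.418 FPKM and Krt14 at 0.401 to 1.66 FPKM, while Sfn stood at 13.3 to 46.4 FPKM.

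Surface markers used to stage reprogramming included Pecam1 (CD31), a late marker, which stood at 1.86, 3.16 and 18.3 FPKM in the control and 1.06, 1.88 and 9.06 FPKM with Dppa2/4 (adjusted p 0.00608). Icam1 stood at 0.904, 1.78 and 12.4 FPKM in the control and 1.68, 3.51 and 5.5 FPKM with Dppa2/4, lowest on day 8 in both arms. Cd44, which marks cells that have not advanced, stood at 13.8, 12.5 and 34 FPKM in the control and 45.6, 56.7 and 49.1 FPKM with Dppa2/4. Of 18 surface markers tested 5 were called higher (Pecam1, Icam1, Cd47, Cd9 and Epcam) and none lower, beside 9.93% and 2.9% of all genes. None was called without the control library of day 14, 1 without the Dppa2/4 library of day 8, 3 without the control library of day 8 and 8 without the Dppa2/4 library of day 14.

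Fibroblast matrix genes moved differently in the 2 time courses. None of the 36 tested was higher or lower at every step in both arms, because nearly all had their highest control value on day 14 and their highest Dppa2/4 value on day 11. The median step from day 8 to day 11 was 0.81 in the control and 1.57 with Dppa2/4, and from day 11 to day 14 it was 1.60 in the control and -0.81 with Dppa2/4. Col1a1, the main chain of type I collagen, stood at 15.8, 31.4 and 97.2 FPKM in the control and 15.9, 38.1 and 18.4 FPKM with Dppa2/4. Bgn (biglycan) stood at 43.8, 99.4 and 435 FPKM in the control and 42.2, 304 and 119 FPKM with Dppa2/4. Of the 36, 3 were called higher, a share below the 9.93% of all genes, among them Fn1 (fibronectin) and Timp2. Fn1 stood at 117, 194 and 491 FPKM in the control and 159.9, 397 and 386 FPKM with Dppa2/4. Without the Dppa2/4 library of day 14, 22 members were called higher, and without the control library of day 14 none. The summed FPKM of the 37 genes was 1223, 1755 and 5751 on days 8, 11 and 14 in the control and 2348, 5080.3 and 3485 with Dppa2/4, against 745 to 1102 in GFP+ cells and 11909 to 23092 in Thy1+SSEA1- cells of these days. The sums of the SSEA1+ cells lay above every GFP+ library and below every Thy1+SSEA1- library. In sorted populations, fewer cells of a type and less RNA per cell cannot be told apart, and the part of Thy1+ cells in these libraries was not tested. Of the 11 smooth muscle genes tested 2 were called higher, beside 9.93% of all genes, with median steps of 0.10 and 1.49 in the control and 1.14 and -0.14 with Dppa2/4. Acta2 (smooth muscle actin) was not called and stood at 39.4, 24.5 and 156 FPKM in the control and 39.1, 108 and 49.9 FPKM with Dppa2/4.

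**Figure D3:**
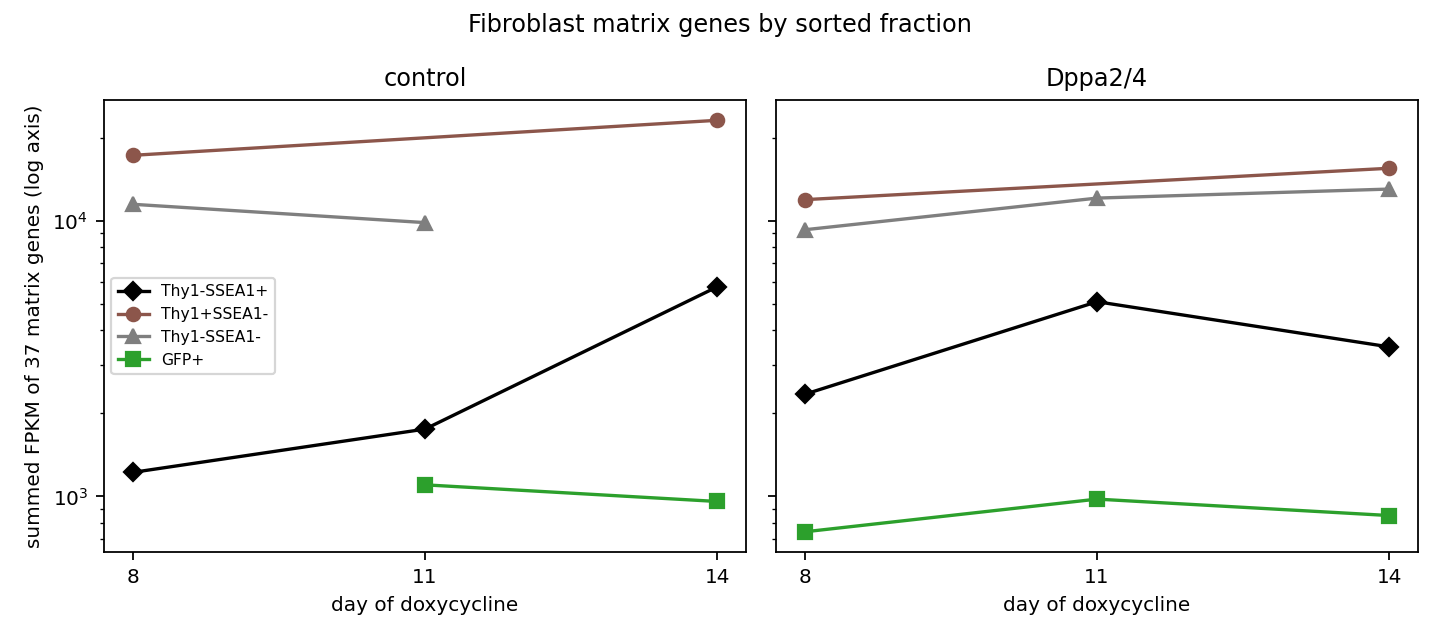
Summed FPKM of 37 fibroblast matrix genes on a log axis (y) against day (x) in the control and Dppa2/4 arms, 1 library per point, for the 4 sorted fractions. The SSEA1+ cells were highest on day 14 in the control and on day 11 with Dppa2/4, and lay above every GFP+ library and below every Thy1+SSEA1- library.

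Some genes of DNA replication were lower on day 14 than on day 8. Of 31 tested, none was higher and 6 were lower at every step in both arms, against 15.1% and 6.62% of all genes, and 5 were called lower and none higher, against 2.9% and 9.93%. The median change was -0.67. None was called without the control library of day 14 or the Dppa2/4 library of day 8, 1 without the control library of day 8 and 3 without the Dppa2/4 library of day 14. Pcna, the sliding clamp of DNA polymerases, stood at 432, 291 and 186 FPKM in the control and 271, 147 and 153 FPKM with Dppa2/4. Mcm4, of the replicative helicase, stood at 142, 113 and 58.2 FPKM in the control and 85.2, 48.7 and 50.1 FPKM with Dppa2/4. Fen1, the flap endonuclease, stood at 47.9, 37.6 and 24.8 FPKM in the control and 36.3, 15.1 and 10.1 FPKM with Dppa2/4 (adjusted p 0.0148), and Chaf1a and Pola1 were also called. The median step of the list was -1.18 from day 8 to day 11 and 0.22 from day 11 to day 14 with Dppa2/4, and -0.20 and -0.33 in the control. Genes of mitosis moved less, with 1 of 28 called lower (Incenp) and a median change of -0.37. Mki67, a marker of cycling cells, stood at 50.3, 44.7 and 27 FPKM in the control and 43.9, 42.6 and 38.7 FPKM with Dppa2/4.

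Regulators of arrest and p53 target genes gave 5 calls higher and none lower among 24 tested, against 9.93% and 2.9% of all genes, with a median change of 0.73. The count was 0 without the control library of day 14 or the Dppa2/4 library of day 8, 2 without the control library of day 8 and 4 to 6 without each of the others. Cdkn2b, an inhibitor of the G1 kinases, stood at 4.85, 7.2 and 33.9 FPKM in the control and 11.6, 42.2 and 47.8 FPKM with Dppa2/4 (adjusted p 0.00696). Cdkn1c, Btg2 and Igfbp3 were also called. Cdkn1a (p21) stood at 108, 129.6 and 257 FPKM in the control and 231, 252 and 337 FPKM with Dppa2/4 and was not called, although it was higher at every step in both arms. Trp53 itself was lower at every step, at 222, 202 and 174 FPKM in the control and 141, 65.5 and 49.3 FPKM with Dppa2/4, and was not called.

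Genes of ribosome biogenesis and of splicing stood out among those with lower values on later days, and both lists were written after the values were seen, so their counts are a description of chosen genes. Of 33 ribosome biogenesis genes tested 24 were lower at every step in both arms and 20 were called lower, and of 20 splicing factor genes 14 and 10, beside 6.62% and 2.9% of all genes, with none of either list called higher. The medians were -1.30 and -1.20. Ncl (nucleolin), a protein of the nucleolus, stood at 395, 285 and 97.3 FPKM in the control and 206, 122 and 116 FPKM with Dppa2/4. Nolc1, a nucleolar phosphoprotein, stood at 167, 150.0 and 62.2 FPKM in the control and 96.5, 37.8 and 21.6 FPKM with Dppa2/4. Polr1b, a subunit of RNA polymerase I, stood at 50.8, 41.7 and 23 FPKM in the control and 28.9, 12.5 and 8.41 FPKM with Dppa2/4. For all 3 genes day 8 was the highest of its arm. Npm1 (nucleophosmin), the list's gene with the highest level per length, was lower on each later day in the control, at 5968, 3868 and 1909 FPKM, and stood at 2957, 2329.9 and 2920.5 FPKM with Dppa2/4. Hnrnpm, a splicing regulator, stood at 538, 375 and 134 FPKM in the control and 332, 192 and 143 FPKM with Dppa2/4. Sfpq, which was not called, stood at 805, 547 and 162 FPKM in the control and 406, 357 and 126 FPKM with Dppa2/4. Without the control library of day 14 the fit over all fractions called 1 ribosome biogenesis gene and no splicing gene, and without the Dppa2/4 library of day 8 it called 5 and 1.

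The genes with the largest moderated t were taken only from genes that moved the same way at every step in both arms, so that order was set by the choice. None of them passed the test in the 6 libraries (adjusted p 0.0739 for each of the 12 highest and 12 lowest). Among those higher at every step, besides Zfp36 and Vegfa, were Cd68, Sorl1, Got1l1, Ndufa4l2, Arrdc4, Vill, Ckmt1 Gm10801 and Gm16869. Ndufa4l2, a hypoxia-induced mitochondrial protein, stood at 1.38, 6.12 and 44.4 FPKM in the control and 5.68, 26.7 and 57.6 FPKM with Dppa2/4. Sorl1, a sorting receptor, stood at 3.31, 13.7 and 35.8 FPKM in the control and 1.35, 13.1 and 37.5 FPKM with Dppa2/4. Arrdc4, an arrestin-like regulator of glucose uptake, stood at 10.4, 23.8 and 72.5 FPKM in the control and 26.4, 71.9 and 123 FPKM with Dppa2/4 and had the smallest adjusted p of these genes in the fit over all fractions (0.00132). Lower at every step were the coding genes Ngfr, Trh, Heatr3, Gpatch4, Pinx1 and Hsph1, and with them rows of small or non-coding RNA (Snora24, Snora52, U6, CT025520.1), the pseudogene Gm15431 and Srsf2.1, whose identifier, like that of Gm16869, has no match in GENCODE vM21. Ngfr, the low-affinity neurotrophin receptor, stood at 67.3, 43.6 and 15.7 FPKM in the control and 11.7, 6.3 and 1.85 FPKM with Dppa2/4. Trh, which encodes the prohormone of thyrotropin-releasing hormone and is high in stem cells, stood at 722, 573 and 269 FPKM in the control and 205, 118 and 63.6 FPKM with Dppa2/4 and was not called in the fit over all fractions (adjusted p 0.0521). The U6 gene named here lies at chr15:34531714-34531823 (mm10), a length at which FPKM divides few fragments by few bases. Cd68, a lysosomal protein and macrophage marker, stood at 4.06, 11.4 and 70.6 FPKM in the control and 7.93, 37.2 and 82.6 FPKM with Dppa2/4, while Ptprc was at 0 to 0.121, Csf1r at 0.0137 to 2.57 and Adgre1 at 0 to 1.00 FPKM over the 6 libraries. The summed FPKM of the 14 immune genes, which include Cd68, was 91.7 to 203, highest on day 14 in both arms. The median difference between days 14 and 8 of the 7 immune genes tested was 1.7 in the control and -0.002 with Dppa2/4. The sum with Dppa2/4 therefore does not describe a rise of the list as a whole.

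**Figure D4:**
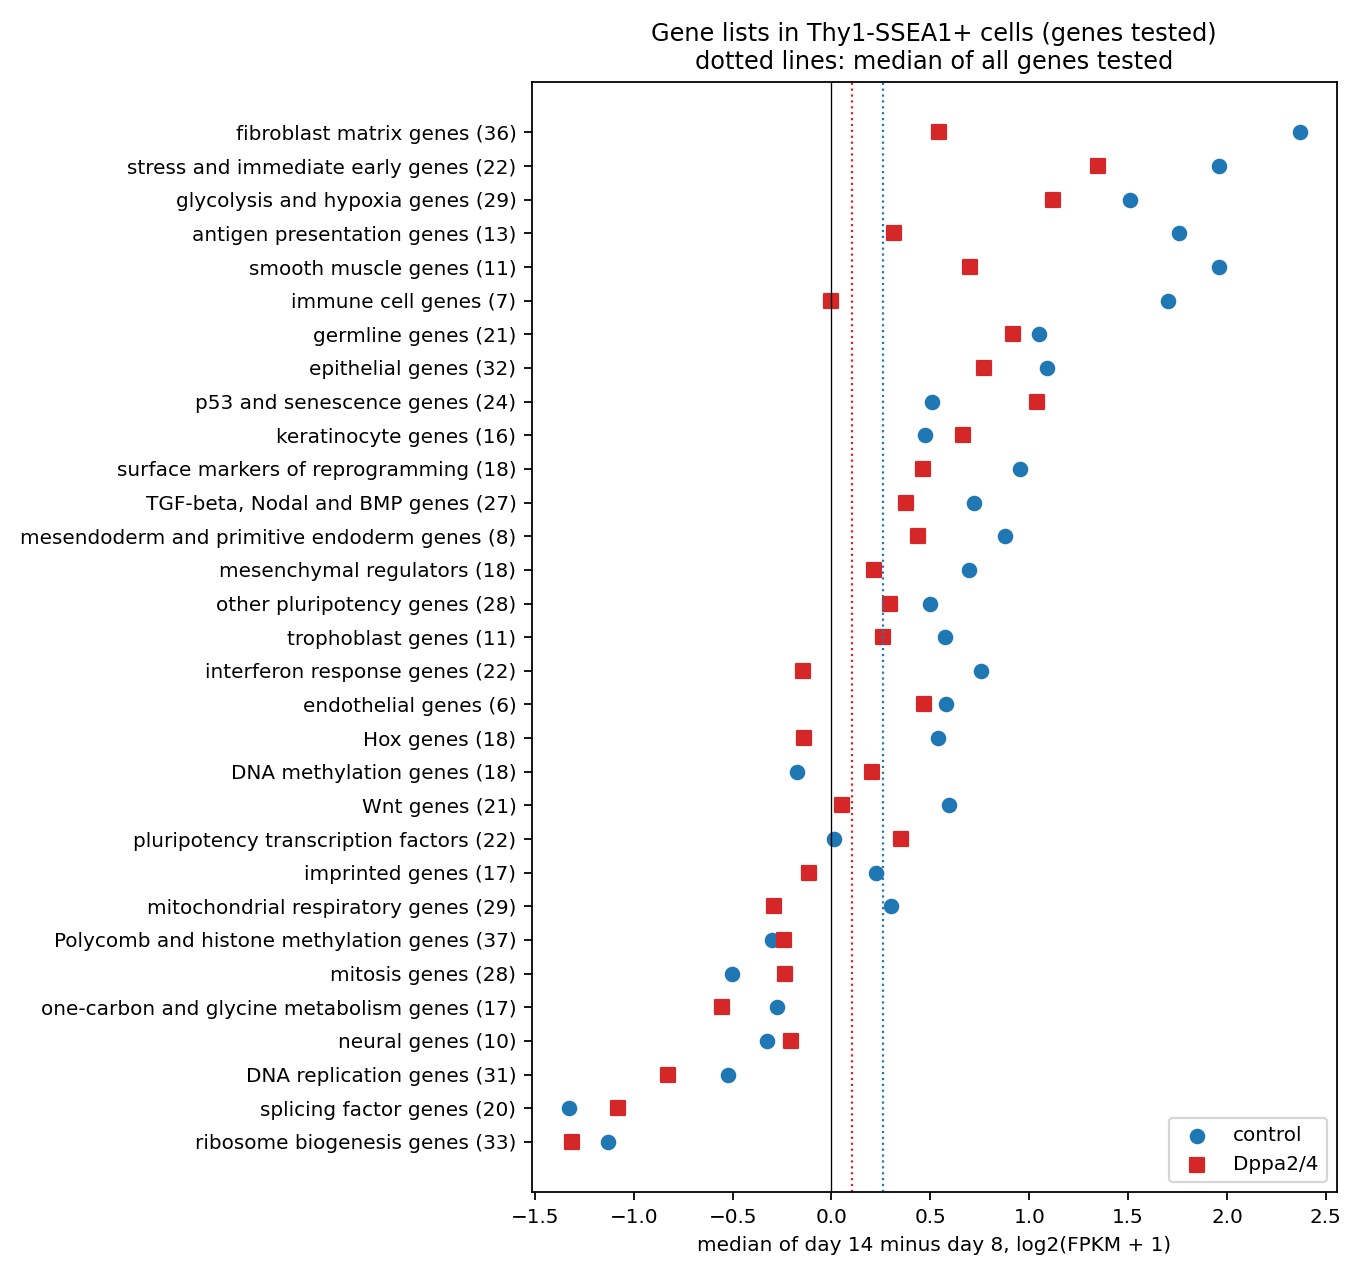
Median of the difference between days 14 and 8 on the log2(FPKM + 1) scale (x) for each gene list with at least 6 genes tested (y, number tested in brackets), with the control as circles and Dppa2/4 as squares and the medians of all genes as dotted lines. Stress genes and glycolysis and hypoxia genes lay at the right in both arms, splicing and ribosome biogenesis genes at the left, and the matrix genes at 2.37 in the control and 0.54 with Dppa2/4.

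Whether these courses differ from those of the other fractions was tested as the difference of the slopes, in 16471 genes. Against GFP+ cells and against Thy1-SSEA1- cells no gene passed (0% called, smallest adjusted p 0.666 and 0.811), and at an unadjusted p under 0.05 617 (3.75%) and 573 (3.48%) genes had the higher slope in SSEA1+ cells and 232 (1.41%) and 80 (0.486%) the lower. Against Thy1+SSEA1- cells 2 rows passed, both with the lower slope (0.0121%) and both listed at 0 in all 6 SSEA1+ libraries. Both rows met the filter on low values only through the Thy1+SSEA1- libraries of day 14, so their passing is no support for a difference. At an unadjusted p under 0.05 1372 genes (8.33%) had the higher slope and 156 (0.947%) the lower. With so few libraries a difference that did not pass does not show that the fractions moved alike. Nor is any of the 1495 and 424 called genes shown to be particular to the SSEA1+ cells, since none of them passed any of the 3 tests of a difference. In the fit over all fractions the Thy1+SSEA1- cells, with 4 libraries, had 49 genes called higher (0.297%) and 32 lower (0.194%), the Thy1-SSEA1- cells, with 5, none (857, or 5.2%, and 1048, or 6.36%, at an unadjusted p under 0.05), and the GFP+ cells, with 5, 71 (0.431%) and 4 (0.0243%). The GFP+ library of day 11 in the control was used as titled, though its description names the SSEA1+ gate.

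By list, the medians over 6 days of the other fractions were near those of the SSEA1+ cells for some groups and far for others, and these are descriptions. For glycolysis and hypoxia genes they were 1.29 in Thy1+SSEA1- cells, 0.82 in Thy1-SSEA1- cells and 0.72 in GFP+ cells, beside 1.29 in SSEA1+ cells. Stress genes had medians of 1.31, 0.70 and 0.58 beside 1.38. The germline median of 1.00 stood beside 0.09, 0.24 and 1.03, so that it was closest to the GFP+ cells. For matrix genes the medians were 0.02, -0.11 and -0.43 beside 1.59. Ribosome biogenesis genes had -0.95, -0.93 and -0.66 beside -1.30. Dppa5a and Stag3 show the germline and pluripotency side in single genes, and for Dppa5a the GFP+ libraries of day 14 stood at 3639.7 FPKM in the control and 2360.3 FPKM with Dppa2/4.

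**Figure D5:**
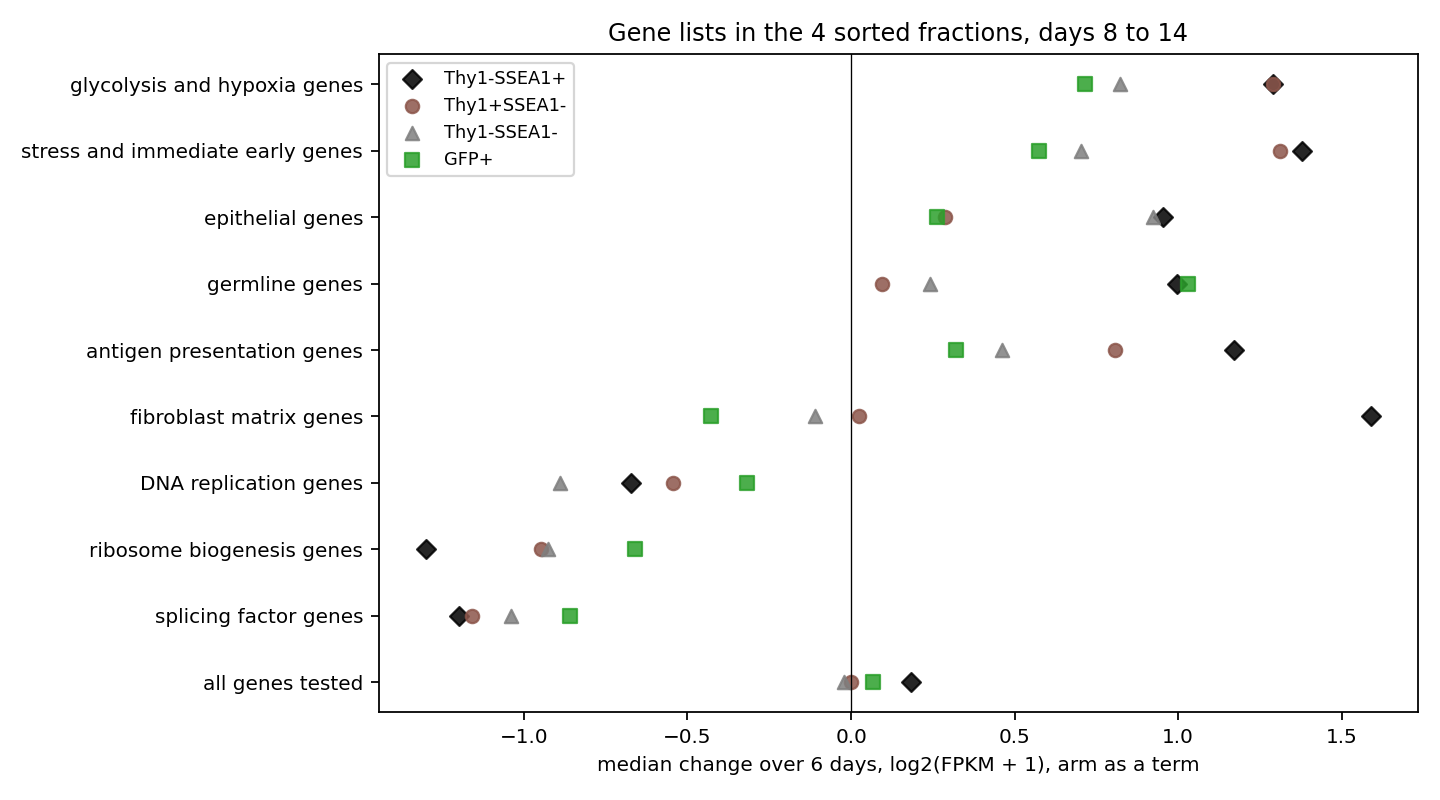
Median change over 6 days on the log2(FPKM + 1) scale (x) for 9 gene lists and for all genes tested (y) in the 4 sorted fractions, each from the slope with the arm as a term. Glycolysis and hypoxia genes lay at 0.72 to 1.29 in all fractions, and matrix genes at 1.59 in the SSEA1+ cells and between -0.43 and 0.02 in the others.

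Over all genes, the control libraries of later days were more like the Thy1+SSEA1- library of day 14. Their Pearson correlation with the day 14 Thy1+SSEA1- library of the control was 0.792, 0.816 and 0.866 on days 8, 11 and 14, and with the day 14 GFP+ library it was 0.899, 0.902 and 0.895. In the Dppa2/4 arm the correlations were 0.866, 0.885 and 0.876 with Thy1+SSEA1- cells and 0.854, 0.857 and 0.875 with GFP+ cells. These correlations are across 16471 genes of single libraries and are descriptions. The slopes of the arms differed in no gene (0% called, smallest adjusted p 0.212, with 1135 genes, 7.79%, at an unadjusted p under 0.05 that had the higher slope with Dppa2/4 and 1860, 12.8%, the lower), in a design of 2 residual degrees of freedom.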

How the data were processed

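Polyadenylated RNA of sorted cells was measured in 33 samples, of which the 6 GFP- Thy1- SSEA1+ libraries of days 8, 11 and 14 are described, with 14 libraries of 3 other fractions for comparison. Per the submitters' processing notes, the authors used TopHat2 and Cuffdiff with mm10; versions, annotation and strand setting are not given in the sources used here. The deposited values were FPKM per gene for 37973 rows, with no counts, so depth is known only as implied by the lowest values (single-transcript genes over 2000 bases) and covers counting precision only. Of the table's 33 columns 3 were not used, because their names matched no sample or gave no fraction. The 13 mitochondrially encoded genes were listed at 0 in every library used. Genes were typed by identifier from GENCODE vM21 as a list of names, which matched 32933 rows.

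Values were taken as log2(FPKM + 1), so differences of low genes are understated, in genes with at least 1 FPKM in at least 2 libraries, and fitted with limma 3.58.1 in R 4.3.3 (trend, two-sided, Benjamini-Hochberg over all genes tested). The 6 libraries left 3 residual degrees of freedom, and the fit over all fractions left 8 with 20 libraries.

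The members and lists were chosen with earlier results of these data known. Named were 15 genes of the factors, gate and fate, whatever their result, the 12 highest and 12 lowest moderated t among genes with a mean of at least 5 FPKM, and the genes of each list with the largest differences; every other gene named, including those given as called, was chosen after its values were seen. Some genes that this rule names are not reported here. The lists of ribosome biogenesis and of splicing were added in the same way.

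On simulated data with 200 changed genes among 14567, the test in 6 libraries recovered 5.97%, 61.2% and 89.4% of the genes changed by 1, 2 and 4 log2 units over 6 days. Among 16471 genes, the fit over all fractions recovered 22.4%, 77.6% and 93.9%. Alternatives covered the pseudocount, the filter, quantile normalization, the variance trend, day as a factor, the arm term, protein-coding genes alone, each library, day and fraction left out, and all fractions in 1 fit.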

Additional observations from a re-analysis of the deposited data

Results flagged for a closer look

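Only 2 genes had slopes that differed between the SSEA1+ and the Thy1+SSEA1- cells past the threshold (limma, adjusted over 16471 genes), and both are short rows. A U6 small nuclear RNA gene of 107 bases (ENSMUSG00000065331, chr16:17341906-17342012, mm10) had a slope lower by 0.63 log2 units per day in the SSEA1+ cells (difference -0.63, SE 0.036, adjusted p 2.79e-05). It was listed at 0 in all 6 SSEA1+ libraries and, in Thy1+SSEA1- cells, at 0 on day 8 in both arms and at 10.7 FPKM in the control and 14.9 FPKM with Dppa2/4 on day 14. The row CT485999.1 (ENSMUSG00000077948, 91 bases, chr14:86920621-86920711) gave a difference of -0.76 (SE 0.036, adjusted p 8.87e-06), again from 0 in every SSEA1+ library and at 0 on day 8 and 19.11 and 26.75 FPKM on day 14 in Thy1+SSEA1- cells. Both were listed at 0 in the Thy1-SSEA1- and GFP+ libraries of these days. They therefore passed the filter on low values only through the Thy1+SSEA1- libraries of day 14, where they were high. With every other library at 0 there was little spread to estimate, so the SE and adjusted p are no support for a difference. An FPKM of 0 in a file without counts can be a failed estimate, so no fold is given.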

How the results depend on the processing

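No paired analysis was possible because each combination of arm, day and fraction was 1 library, so every sample carries the same number and the numbers pair nothing. In the 6 libraries the test called 0 genes in either direction with a pseudocount of 0.1, with no filter, with a mean of at least 5 FPKM, after quantile normalization, without the variance trend and without the arm term. It called 12 higher and 12 lower with day as a factor, 1495 and 424 in the fit over all fractions, 846 and 183 with protein-coding genes alone, 29 and 31 without day 8, 752 and 148 without day 11 and 53 and 26 without day 14. Without each library in turn it called 0 to 2 higher and 0 to 2 lower, and the difference between arms 0 to 0 higher and 0 to 3 lower.

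Against Thy1+SSEA1- cells, where 0 and 2 passed, the pseudocount of 0.1 gave 1 lower, no filter 1 higher, a mean of at least 5 FPKM 0 lower, and the pair of fractions alone 2 higher and 4 lower. Without each library in turn the counts were 0 to 8 and 1 to 4 against Thy1+SSEA1- cells, 0 to 1 and 0 to 1 against Thy1-SSEA1- cells, and 0 to 1 and 0 to 6 against GFP+ cells, where no filter gave 4 lower. The fit over all fractions, with alternatives chosen after seeing the data, called 921 higher with a mean of at least 5 FPKM, 704 and 652 after quantile normalization and 828 and 181 without GFP+ cells, and without each library in turn 29 to 1351 higher and 3 to 373 lower.

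Single genes whose slope (log2 units per day) changed sign were Dppa2, at -0.14 to 0.054 without each library in turn and 0.36 without day 8, Dppa4, at -0.052 to 0.32 and -0.31 without day 14, Pou5f1, at -0.088 to 0.022, and Sox2, at -0.011 to 0.21 and -0.017 without day 8. Without day 8 the slopes of Esrrb (-0.027) and Cdh1 (-0.012) did so too. For Dppa2 the sign changed without the day 8 library of the control (0.036) or of Dppa2/4 (0.054), for Dppa4 without the day 14 library of the control, and for Pou5f1 and Sox2 without the day 8 library of Dppa2/4. None of them was called. The causes were not tested. The limits are the single library for each arm and day, the absence of counts, and days whose libraries share their depth.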

Other observations

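Several lists not described above moved little or in few members, and their calls are from the fit over all fractions, with the same background of 9.93% higher and 2.9% lower. Of 21 Wnt genes tested 4 were called higher (Dkk3, Fzd7, Wnt7b and Fzd1) and 1 lower (Tcf7l2), and the median change over 6 days of 0.22 became -0.11 after quantile normalization. Fzd7, a Wnt receptor, stood at 11, 15.5 and 22 FPKM on days 8, 11 and 14 in the control and 12.7, 24.9 and 30.6 FPKM with Dppa2/4. Of 27 genes of TGF-beta, Nodal and BMP signalling 1 was called higher, Tgfb1, at 2.07, 3.43 and 12.8 FPKM in the control and 1.74, 12.5 and 14.7 FPKM with Dppa2/4. Imprinted genes gave 3 calls higher among 17 (Igf2r, Sgce and Cdkn1c), with a median of -0.03. Igf2r, the receptor that clears Igf2, stood at 16, 20.6 and 34.2 FPKM in the control and 35.8, 60.9 and 67.9 FPKM with Dppa2/4. Of 37 Polycomb and histone methylation genes Cbx7 and Ezh1 were called higher and Smarcc1 lower, and Ezh2 stood at 112, 90.7 and 47.4 FPKM in the control and 57.4, 41.8 and 56.7 FPKM with Dppa2/4. Of 17 genes of one-carbon and glycine metabolism 1 was called lower, Gcsh, at 164, 99.4 and 87.7 FPKM in the control and 109, 49.6 and 49.3 FPKM with Dppa2/4. Genes of the respiratory chain and ATP synthase had no call among 29, and their median was -0.14.

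Genes of antigen presentation had a median difference between days 14 and 8 of 1.76 in the control and 0.32 with Dppa2/4, and 3 of 13 were called higher. B2m, the light chain of class I molecules, stood at 68.2, 87 and 198 FPKM in the control and 121, 308 and 246 FPKM with Dppa2/4, highest on day 14 in the control and on day 11 with Dppa2/4. Interferon response genes gave 1 call among 22, Ifi27, at 3.02, 10.8 and 54.8 FPKM in the control and 15.1, 44.7 and 47.3 FPKM with Dppa2/4. Among trophoblast genes, Krt7 stood at 0.405, 1.62 and 22.4 FPKM in the control and 5.53, 11.8 and 28.8 FPKM with Dppa2/4 and was called with Elf5 and Mmp9, while Cdx2, a defining factor of trophoblast, stayed at 0.0139 to 0.13 FPKM. Of 8 genes of mesendoderm and primitive endoderm tested, Gata4 and Lamb1 were called higher, and Gata4 stood at 0.0945, 0.372 and 3.22 FPKM in the control and 1.15, 3.9 and 3.59 FPKM with Dppa2/4. The other markers of these cells were lower, with Gata6 at 0.0193 to 1.00 FPKM and Sox17 at 0.0102 to 0.774 FPKM. Foxa2 stood at 0.0155 to 0.813 FPKM and T at 0.0348 to 1.35 FPKM, with T below its day 8 level on day 14 in both arms. Of 10 neural genes 1 was called lower, and Tubb3 stood at 8.02, 6.56 and 4.18 FPKM in the control and 3.54, 0.886 and 1.25 FPKM with Dppa2/4. Other neural markers moved otherwise. Pax6 was highest on day 14 in both arms, at 0.817 FPKM in the control and 0.733 FPKM with Dppa2/4. Map2 stood at 9.76, 8.49 and 5.31 FPKM in the control and 9.14, 8.38 and 10.1 FPKM with Dppa2/4. No Hox gene was called among 18 tested, with a median of 0.31 that was below 0 after quantile normalization. Of the muscle markers, Myod1 stayed at 0 to 0.0901 FPKM and Myog at 0 to 0.0335 FPKM, while Des (desmin) stood at 3.49 to 19.07 FPKM. Of the endothelial markers, Cdh5 stayed at 0 to 0.148 FPKM, Tie1 at 0.15 to 0.368 FPKM and Kdr at 0.204 to 0.687 FPKM, while Tek stood at 4.5 to 13.2 FPKM.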
